A study of Canis lupus familiaris with 18 samples.

Results

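The response of MDCKI cells carrying bPAC to a low dose of light was measured by 3' end RNA sequencing. MDCKI is an epithelial line from dog kidney, and bPAC is an adenylyl cyclase of bacterial origin, switched on by blue light to produce cyclic AMP. The 4 libraries whose source is bPAC with low light were set against the 3 libraries whose source is bPAC control, out of 18 libraries in the series. Control cells received no light, low light cells were illuminated for 2 h from 16 h after plating, and both grew in DMEM with 0.5% FCS and GlutaMAX and without phenol red. Parental MDCKI cells, which lack bPAC, were treated in the same way, with 3 dark and 3 low light libraries, and serve here as the comparison for the effect of light alone. The series also holds 3 bPAC and 2 parental libraries from cells given high light. These enter the model and the principal components over all 18 libraries, and their values are given only where high light is named. The promoter that drives bPAC, whether the line is 1 clone, the wavelength and the size of the low dose are not stated in the labels, and the bPAC transcript was not analysed here.

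Cyclic AMP is a second messenger that releases the catalytic subunits of protein kinase A from their regulatory subunits. The freed kinase phosphorylates CREB and related transcription factors, which switch on genes with cyclic AMP response elements within minutes to hours, and in kidney epithelia the pathway mediates the action of vasopressin on water and ion transport. Genes are listed in the files under Ensembl dog IDs without symbols, and the reference table held 0 of the 32220 IDs. Gene functions, CREB target lists and the markers of epithelial and other cell types could therefore not be examined, and the genes are grouped by the size, direction, abundance and replicate agreement of their changes.

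The 7 libraries held between 2803728 and 6836729 reads assigned to genes, with 3604743.3 ± 784069 reads in the dark (SD, n = 3) and 4818331 ± 1445243 reads in low light (SD, n = 4). Between 11152 and 11981 genes had at least 1 read in a library. The labels do not say whether replicates are separate cultures, and p-values then reflect only how these libraries vary, possibly for technical reasons. All 18 libraries entered 1 model, and 8530 genes passed a filter on low counts. Levels are CPM, which are gene reads scaled to an equal library size by TMM, and a gene is called at an adjusted p under 0.05 (edgeR, Benjamini-Hochberg over all 8530 genes). In bulk RNA, fewer cells of a kind and less RNA per cell cannot be told apart.

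The 4 low light libraries did not lie together. On the first principal component of log2 CPM over all 18 libraries, low light libraries 1 and 4 scored 59.8 and 67.2, whereas libraries 2 and 3 scored 10.99 and 15.1 and the dark bPAC libraries scored from -52.0 to -31.8. The pairs were not separated by depth, with 4280231 and 6836729 gene reads in libraries 1 and 4 and 4713423 and 3442941 in libraries 2 and 3. Ambiguous reads, which overlap more than 1 gene, were 0.0581 and 0.0564 per 100 gene reads in libraries 1 and 4 and 0.0486 and 0.0475 in libraries 2 and 3. The share of gene reads in the top 10 genes by abundance was 18.5% and 18.3% in libraries 1 and 4 and 16.4% and 15.97% in libraries 2 and 3. Reads outside annotated genes did not follow the pairs, at 29.5% of all reads in libraries 1 and 2 and 27.5% in libraries 3 and 4. No pair of replicates agreed within sampling noise, with chi-square per degree of freedom between 8.69 and 68.98 over the 9 pairs within these groups, and each library was counted as 1 replicate. This measure, which grows with depth, was 13.4 between libraries 2 and 3 but 38.1 between libraries 1 and 4. Libraries 1 and 4 were thus near each other on the first component and still differed beyond sampling noise. How many genes differed between them was not examined. Whether these measures have a part in the results was not tested, and the values below are given with and without each pair.

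Low light changed 3009 of the 8530 tested genes in bPAC cells, or 35.3%. Of these, 1468 rose (17.2% of the tested genes) and 1541 fell (18.1%). Without low light libraries 1 and 4 the count was 1030 of 8422 genes (12.2%), and without libraries 2 and 3 it was 3579 of 8489 (42.2%). Without dark library 2 it was 1734. With 1 surrogate variable, an unlabelled axis of variation estimated by sva, it was 219, of which 189 rose and 30 fell. That variable was between -0.266 and -0.138 in the 3 dark libraries, -0.0277 and -0.019 in low light libraries 2 and 3, and 0.412 and 0.682 in libraries 1 and 4, so it separated light from dark as well as the pairs from each other.

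In the full fit, called decreases were larger than called increases. The median log2 fold change was 1.01 among the 1468 genes that rose and -1.25 among the 1541 that fell, beside a median of 0.03 over all 8530 genes. Changes of at least 4-fold were found for 71 of the genes that rose and 327 of those that fell, which is 4.84% and 21.2% of each direction. Between 2-fold and 4-fold the counts were 678 and 669, between 1.5-fold and 2-fold 583 and 449, and under 1.5-fold 136 and 96. A change of at least 2-fold was thus called for 749 genes that rose (8.78% of the tested genes) and 996 that fell (11.7%). Without low light libraries 1 and 4 that order was reversed, with 338 higher and 275 lower. The 174 genes called in every alternative, given below, had medians of 1.53 and -1.52. More called decreases (314) than increases (187) lay under 5 CPM, where no log2 change smaller than 0.84 in size was called. A test against a minimum change of 1.5-fold (edgeR's glmTreat) called 966 genes, or 11.3% of the tested genes, with 450 higher and 516 lower.

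Complete gain or loss of a transcript was rare. Of the genes that rose, 5 had 3 reads or fewer summed over the dark libraries, and none of the 1468 had 0 reads there. Of the genes that fell, 12 had 3 reads or fewer in the low light libraries together, and 1 had 0 reads. The other 2992 called genes had more than 3 reads in each group. With the genes at or under 3 reads set to the bound that 3 reads per group allow, the median log2 fold changes stayed at 1.01 and -1.25. With only 5 and 12 genes replaced, these medians could hardly have moved.

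**Figure D1:**
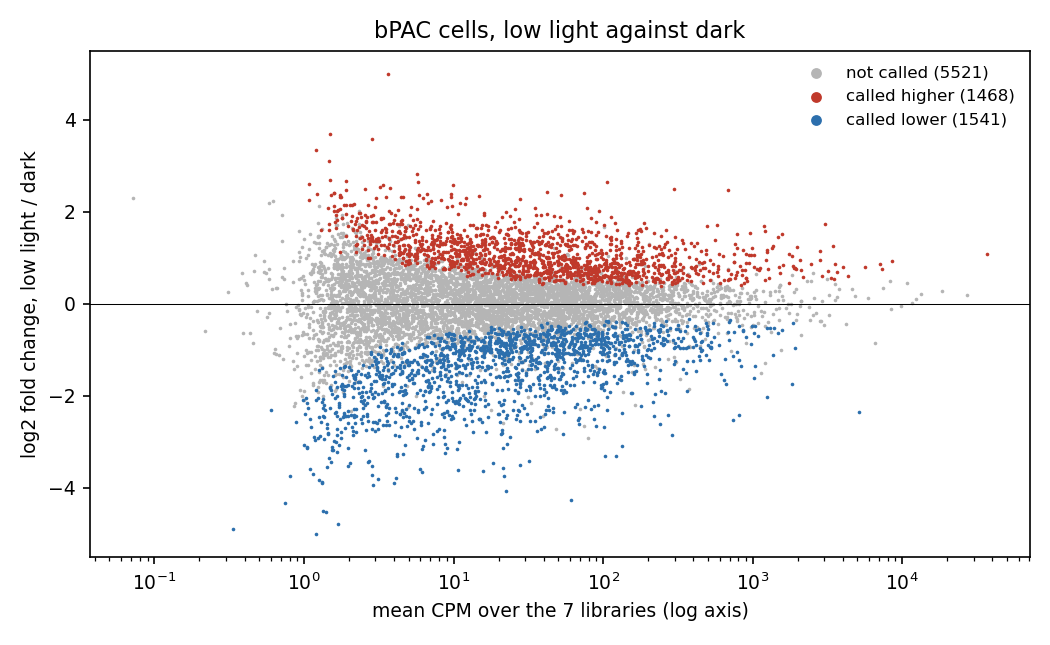
Log2 fold change between low light and dark bPAC cells against mean CPM over the 7 libraries (log axis), 1 point per tested gene. Red points are the 1468 genes called higher, blue points the 1541 called lower and grey points the genes not called; 327 blue points and 71 red ones lie at a change of 4-fold or more.

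Among the called genes, increases outnumbered decreases at high abundance and decreases outnumbered increases at low abundance. Genes were placed in 5 classes by their mean CPM over the 7 libraries. The low light libraries enter that mean, so a rise moves a gene towards a higher class and a fall towards a lower one. Part of the order below is thus favoured by the choice of classes, and how large a part was not tested. Of 320 tested genes at 500 CPM or more, 96 rose and 46 fell. Of 1223 genes at 100 to 500 CPM, 294 rose and 233 fell. In the middle class, 20 to 100 CPM, the directions were nearly even, with 525 higher and 536 lower of 2611. Of 2224 genes at 5 to 20 CPM, 366 rose and 412 fell. Under 5 CPM, 187 of 2152 rose and 314 fell. The share of increases among the called genes thus went from 37.3% in the scarcest class to 67.6% in the most abundant.

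That order by abundance was also found in the fits without either pair. Without libraries 1 and 4, increases made up 41.98% of the called genes under 5 CPM and 67.2% at 500 CPM or more, and without libraries 2 and 3 they made up 38.1% and 66.7%. With DESeq2's size factors in place of TMM they made up 34.9% and 62.7%. With the surrogate variable, increases made up most of the calls in every class, 6 of 8 under 5 CPM and 14 of 15 at 500 CPM or more. With no filter on low counts, the class from 100 to 500 CPM had 247 increases and 251 decreases. All these fits used the same classes, set by the mean over the 7 libraries, so they do not remove the part of the order that this choice favours. The difference between the classes was not tested.

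The smallest change called also differed with abundance. The share of genes called was 23.3% under 5 CPM, 34.98% at 5 to 20 CPM, 40.6% at 20 to 100 CPM, 43.1% at 100 to 500 CPM and 44.4% at 500 CPM or more. Over the same classes the median SE of the log2 fold change fell from 0.52 to 0.19. The smallest log2 change called was 0.84 in size under 5 CPM and 0.34 at 100 to 500 CPM. Accordingly 96.6% of the called genes in the scarcest class changed by at least 2-fold, against 33.8% in the most abundant class. The median log2 fold change of the genes that rose went from 1.59 to 0.81 between these classes, and that of the genes that fell from -2.04 to -0.88. In the scarcest class no change under 1.5-fold was called.

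**Figure D2:**
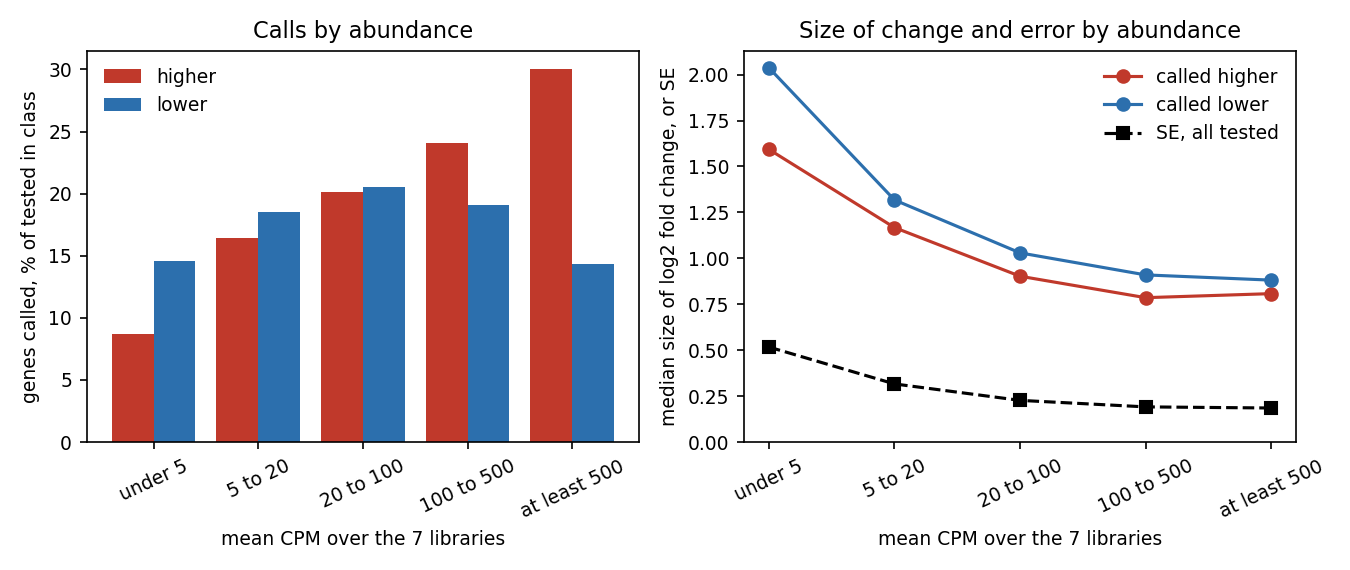
Left, genes called higher (red) and lower (blue) as a percentage of the genes tested in each class of mean CPM; right, the median size of the log2 fold change of called genes (circles) and the median SE over all tested genes (squares). Increases went from 8.69% to 30.0% of the tested genes over the classes, while decreases stayed between 14.4% and 20.5%. The class mean includes the low light libraries, which favours increases in the higher classes.

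The changes moved a large part of the transcript pool. The 1468 genes that rose held 21.8%, 17.8% and 20.1% of the gene reads in dark libraries 1, 2 and 3, and 34.7%, 31.2%, 32.3% and 38.4% in low light libraries 1, 2, 3 and 4. The 1541 genes that fell held 17.4%, 20.7% and 18.7% of the gene reads in the dark, and 6.995%, 10.6%, 9.87% and 6.25% in low light. In both sets libraries 1 and 4 were farthest from the dark and the groups did not overlap, as the choice of the genes from these libraries would favour. The gain was more concentrated than the loss. The 10 genes with the largest gain in CPM made up 32.1% of the summed gain of 163180 CPM, and 34 genes made up 50% of it. Among the genes that fell, the 10 largest made up 20.5% of the summed loss of 93339 CPM, and 85 genes were needed for 50%. A single gene made up 15.3% of the summed gain, and another made up 8.22% of the summed loss. The groups did not overlap for 8 of the 10 largest gains and all 10 largest losses, beside 41.5% of all tested genes.

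Nearly all called genes separated the individual libraries. For 2707 of the 3009 called genes (89.96%) all 4 low light libraries lay on the same side of all 3 dark libraries, against 3541 of all 8530 tested genes (41.5%). The calls were made from these same libraries, which favours separation among called genes. The 3541 were 1667 genes with higher and 1874 with lower low light libraries, which is 19.5% and 22% of the tested genes. Separation was found for 1448 of the 1541 genes that fell (93.96%) and 1259 of the 1468 that rose (85.8%). Another 834 genes separated the libraries without being called. An exact permutation test of a single gene over 4 and 3 libraries cannot go below a two-sided p of 0.0571, so the calls rest on the spread pooled over genes and groups.

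Each library was also compared with genes called without it. Of 2368 genes called without low light library 1, 2343 lay on the called side of the dark mean in library 1 (98.9%), and of 2296 called without library 4, 2274 did so in library 4 (99.0%). For library 2 the numbers were 3167 of 3260 (97.1%), and for library 3 they were 2962 of 3014 (98.3%). Over all genes tested in each of these fits, called or not, between 81.6% and 84.9% lay on the fitted side. These comparisons share the 3 dark libraries, so the shares are a description of agreement among the low light libraries and not an independent test. For the dark libraries, between 97.8% and 99.8% of the genes called without a given dark library lay on the called side of the low light mean in it, beside 82.5% to 86.6% of all tested genes. The 4 low light libraries therefore had the same direction of change for nearly all called genes.

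The libraries differed in how far the genes moved. In library 4 the median shift from the dark mean was 1.42 on the log2 scale for genes called without it, where the other 3 libraries together had 1.09. In library 1 it was 1.23 beside 1.11. In library 2 the held-out shift was 0.73 beside 1.18, and in library 3 it was 0.85 beside 1.19. Libraries 1 and 4 thus exceeded the other libraries and libraries 2 and 3 fell short of them.

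**Figure D3:**
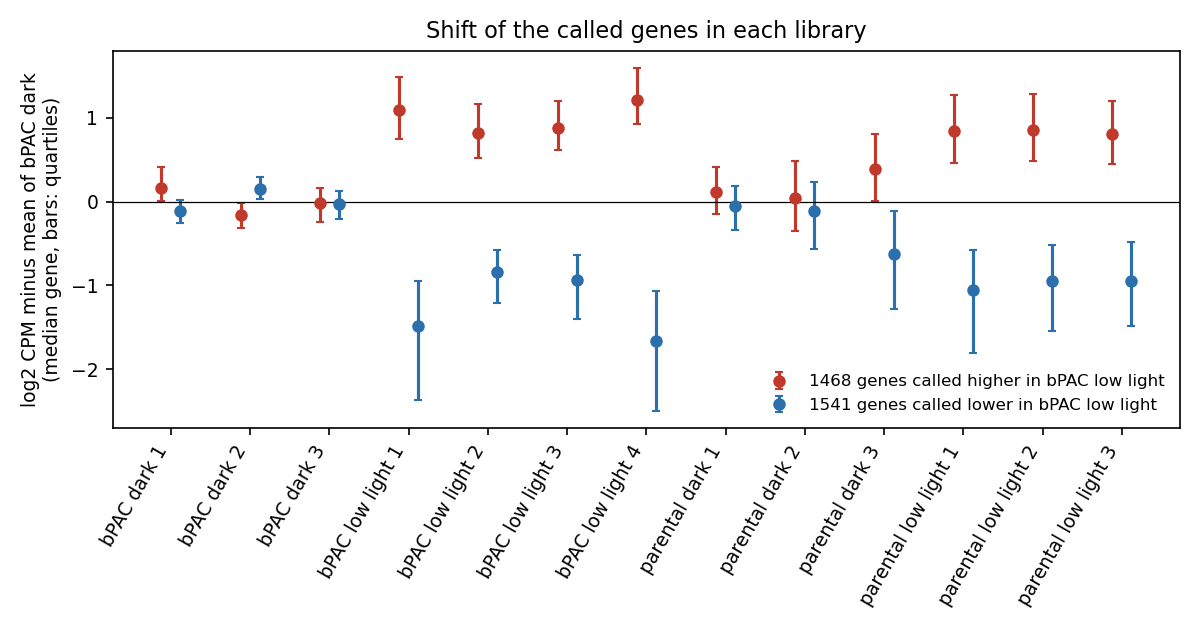
Shift of log2 CPM from the mean of the dark bPAC libraries in each of 13 libraries, as the median over the 1468 genes called higher (red) and the 1541 called lower (blue) with quartiles as bars. Medians of the genes called lower were -1.49 and -1.66 in bPAC low light libraries 1 and 4 and -0.84 and -0.93 in libraries 2 and 3. They were between -1.06 and -0.95 in the parental low light libraries and -0.058, -0.114 and -0.625 in parental dark libraries 1, 2 and 3. Parental shifts are also taken from the bPAC dark mean, so they include the difference between the lines in the dark.

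The pairs were more distinct among genes that fell than among genes that rose. Both libraries 1 and 4 lay farther from the dark than both libraries 2 and 3 for 1046 of the 1541 genes that fell (67.9%) and for 778 of the 1468 that rose (53.0%). Over all tested genes, these shares were 44.4% of the genes fitted lower and 35.8% of those fitted higher. The reverse order was found for 24 of the genes that fell and 28 of those that rose. Library 4 was the farthest from the dark for 59.1% of the genes that rose and 51.98% of those that fell, and library 2 was the nearest for 47.8% and 55.4%. The median SD of log2 CPM among the low light libraries was 0.52 for genes that fell and 0.30 for genes that rose, where the dark libraries had 0.26 and 0.30.

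Among the called genes, leaving out a pair changed the size of the changes and not their direction. All 2996 of the 3009 called genes that were tested without libraries 1 and 4 kept their sign, as did all 3002 tested without libraries 2 and 3. The 1468 genes that rose had a median log2 fold change of 0.82 without libraries 1 and 4 and 1.19 without libraries 2 and 3. For the 1541 genes that fell, these medians were -0.94 and -1.62. Of the 3009 genes, 1005 were still called without libraries 1 and 4, and 2775 without libraries 2 and 3. Both pairs share the dark libraries, so the signs are not independent of each other. The genes were also called with both pairs in the fit, which favours a kept sign, and the share among all tested genes was not examined. In either fit, genes called at 2-fold or more numbered 338 higher and 275 lower without libraries 1 and 4, and 1070 higher and 1477 lower without libraries 2 and 3.

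A set of 958 genes (31.8% of the 3009) was called with the same sign in the full comparison and without either pair. It held 521 genes that rose and 437 that fell, which is 35.5% and 28.4% of each direction. Their median log2 fold changes were 1.28 and -1.42. The low light and dark libraries did not overlap for 946 of them, beside 41.5% of all tested genes, as the choice of these genes from the same libraries would favour. Only 70 of the 958 had a mean under 5 CPM, whereas 402 lay at 20 to 100 CPM, 220 at 100 to 500 CPM and 67 at 500 CPM or more.

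A smaller set of 174 genes (2.04% of those tested) was called with the same sign in each of 29 alternative analyses, which changed the scaling, test, filter, depth or libraries or added the surrogate variable. It held 153 genes that rose and 21 that fell. In all alternatives but the surrogate variable, 335 genes that rose and 236 that fell were called. The 174 genes had median log2 fold changes of 1.53 and -1.52. Since the alternatives include fits without each library and a filter at a mean of 5 CPM over all 18 libraries, which left 114 of the 2152 genes of the scarcest class, agreement between libraries and an abundance above 5 CPM are favoured by the choice of these genes.

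By the rule for named genes, the 2 largest changes per direction within these 174 are given in full. ENSCAFG00000009209 stood at 31.5, 27.5 and 19.7 CPM in the dark libraries and at 158.4, 143.7, 160.1 and 200.5 CPM in low light libraries 1 to 4. The low light libraries were alike across the pairs and all lay far above the dark ones. The gene rose 6.31-fold (log2 fold change 2.66, SE 0.39; edgeR adjusted p = 0.000423). It stood at 26.3, 8.85 and 12.9 CPM in dark parental cells and 28.2, 28.6 and 11.3 CPM in parental low light, where the groups overlapped (edgeR adjusted p = 0.502). The difference between the lines was 2.20 on the log2 scale and was not called (edgeR adjusted p = 0.535).

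ENSCAFG00000003233 was scarce in the dark, at 2.55, 2.72 and 2.36 CPM, or 29 reads in all. In low light it stood at 20.5, 17.1, 10.2 and 13.7 CPM, or 289 reads. All low light libraries exceeded the dark ones, and the order within low light did not follow the pairs. The gene rose 6.02-fold (log2 fold change 2.59, SE 0.44; edgeR adjusted p = 0.000603). In parental cells it had 2.62, 2.68 and 4.97 CPM in the dark and 9.12, 4.97 and 7.57 CPM in low light (edgeR adjusted p = 0.11).

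ENSCAFG00000015190 had the largest decrease of the 174, from 49.2, 35.6 and 89.9 CPM in the dark to 1.67, 11.4, 7.61 and 0.314 CPM in low light. Libraries 1 and 4 were the lowest, with 7 and 2 reads, while libraries 2 and 3 had 54 and 26. The gene fell 11.4-fold (log2 fold change -3.51, SE 0.70; edgeR adjusted p = 0.00261), and its log2 fold change was -2.62 without libraries 1 and 4 and -5.97 without libraries 2 and 3. In parental cells it stood at 44.8, 20.9 and 13.3 CPM in the dark and 19.7, 31.5 and 26.4 CPM in low light, which overlapped (edgeR adjusted p = 0.981). The difference between the lines, -3.47 on the log2 scale, was not called (edgeR adjusted p = 0.75).

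ENSCAFG00000012431 stood at 39.4, 51.9 and 32.8 CPM in the dark and at 3.101, 8.87, 6.15 and 5.19 CPM in low light. The groups were far apart, and libraries 1 and 4 were again the lowest. The gene fell 7.05-fold (log2 fold change -2.82, SE 0.41; edgeR adjusted p = 0.000339). Parental cells had 28.1, 17.4 and 7.01 CPM in the dark and 6.47, 4.42 and 6.27 CPM in low light, and the gene fell there as well (log2 fold change -1.65, edgeR adjusted p = 0.0263). In high light, which was given to 3 further bPAC libraries and is compared with the same dark cells, it stood at 6.95 ± 4.39 CPM (SD, n = 3). ENSCAFG00000009209 stood at 434 ± 95.1 CPM, ENSCAFG00000003233 at 6.95 ± 5.14 CPM and ENSCAFG00000015190 at 14.1 ± 5.31 CPM in high light (SD, n = 3).

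**Figure D4:**
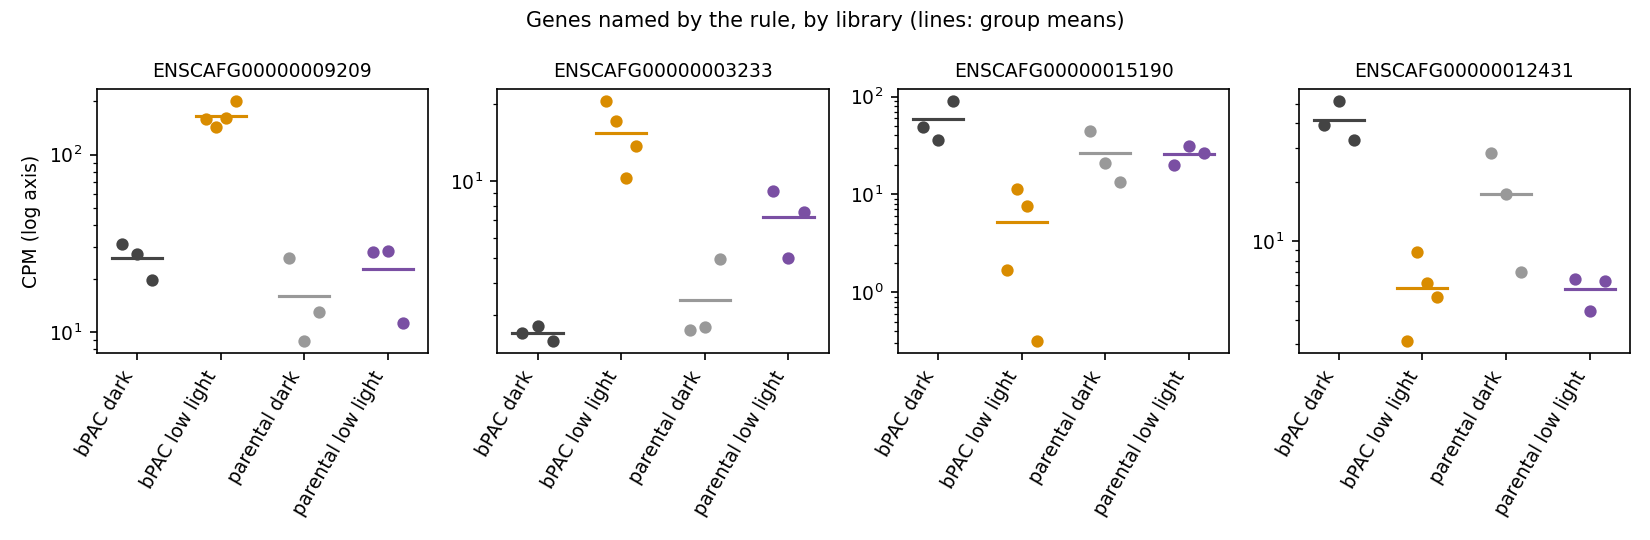
CPM (log axis) of the 2 genes with the largest increase and the 2 with the largest decrease among the 174, in each library of 4 groups, with lines at the group means. In each panel the bPAC low light points do not overlap the bPAC dark points, while parental dark and low light points overlap for ENSCAFG00000009209 and ENSCAFG00000015190.

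The same dose of light was given to parental cells, and the comparison addresses which changes came with light in cells without bPAC. There 976 of the 8530 genes (11.4%) differed from dark, 577 higher (6.76%) and 399 lower (4.68%). The comparison shares no library with that of bPAC cells. Of the 577 genes, 492 were also higher in bPAC cells, which is 85.3% of the parental and 33.5% of the bPAC list. Of the 399 genes, 325 were also lower, or 81.5% and 21.1%. The parental count was 242 without parental dark library 2 and 268 without parental low light library 2.

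Each list showed its larger changes in the line that it was chosen in. The genes called higher in parental cells had a median log2 fold change of 1.09 there and 1.04 in bPAC cells, and 261 of the 577 moved farther in bPAC cells. For the 399 called lower, the medians were -1.12 and -1.02, and 179 moved farther in bPAC cells. The 1468 genes that rose in bPAC cells had medians of 1.01 in bPAC and 0.63 in parental cells. The 1541 that fell had -1.25 and -0.73.

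The genes called in bPAC cells alone mostly had parental values of the same sign. Of the 976 genes that rose in bPAC cells and were not called in parental cells, 899 had a parental log2 fold change above 0, with a median of 0.45. Of the 1216 that fell, 1146 had one below 0, with a median of -0.61. A parental sign opposite to that in bPAC cells was found for 77 of the 1468 and 70 of the 1541 genes. The share of equal signs among all tested genes was not examined. These counts therefore do not show whether called genes agreed between the lines more than other genes did. Among the strongest bPAC decreases, of at least 4-fold, 55 of 327 (16.8%) were called lower in parental cells, and the median parental value was -1.58. Among increases of at least 4-fold, 25 of 71 (35.2%) were called higher, with a median of 1.16.

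The interaction of line and light tested whether the low dose had another effect in bPAC than in parental cells, and it called 3 genes (0.0352% of those tested, edgeR). At an unadjusted p under 0.05 there were 507 genes, or 5.94%, where 0.05 of the tested genes would fall if no gene differed. DESeq2 called 13 genes. The median SE of this difference was 0.43 on the log2 scale, against 0.29 for the bPAC and 0.31 for the parental comparison. A call in bPAC cells without one in parental cells is therefore not evidence that a gene responded differently, and for 3006 of the 3009 genes no difference between the lines was called. Without bPAC low light libraries 1 and 4 the interaction called 6 genes, and without libraries 2 and 3 it called 28, with 3 higher and 25 lower.

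The 3 genes are named because there are so few, after their values were seen. ENSCAFG00000006638 stood at 70.2, 75.4 and 82.1 CPM in dark bPAC cells and 13.4, 19.4, 14.3 and 10.1 CPM in low light, and it fell 5.32-fold (edgeR adjusted p = 1.34e-05). In parental cells it stood at 28.6, 15.6 and 15.4 CPM in the dark and 23.8, 25.4 and 22.9 CPM in low light. In the dark its bPAC libraries exceeded every parental one, and in low light they lay below every parental one (interaction log2 -2.67, edgeR adjusted p = 0.00296). ENSCAFG00000016984 rose from 86.0, 78.4 and 77.9 CPM to 578.4, 364.1, 366.7 and 521.7 CPM in bPAC cells, or 5.66-fold (edgeR adjusted p = 8.96e-06). Its parental levels were 62.1, 64.6 and 92.7 CPM in the dark and 96.8, 81.4 and 120.3 CPM in low light (interaction log2 2.06, edgeR adjusted p = 0.0113). ENSCAFG00000018583 rose 2.10-fold in bPAC cells, with 602 ± 61.1 CPM in the dark (SD, n = 3) and 1260.3 ± 186 CPM in low light (SD, n = 4), and stood at 951 ± 158 and 699 ± 75.8 CPM in dark and low light parental cells (SD, n = 3 each; interaction edgeR adjusted p = 0.0182). The interaction of ENSCAFG00000016984 was not called without bPAC dark library 2 or 3, parental dark library 3 or parental low light library 2 (edgeR adjusted p = 0.0602 to 0.0867). That of ENSCAFG00000018583 was lost on leaving out any 1 of these libraries, parental dark library 2 or parental low light library 3 (edgeR adjusted p = 0.0635 to 0.12).

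**Figure D5:**
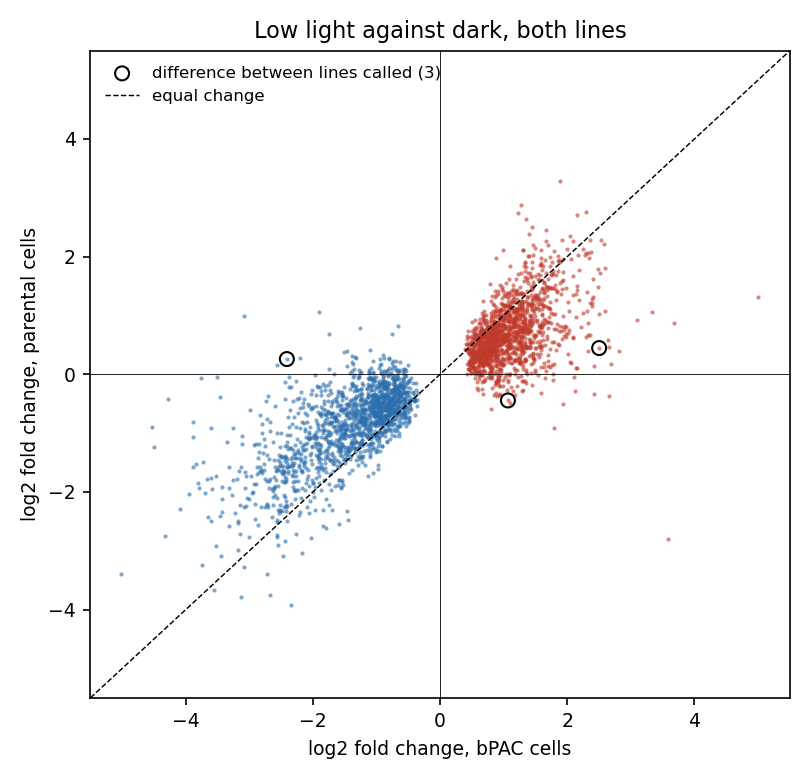
Log2 fold change between low light and dark in parental cells (vertical) against bPAC cells (horizontal) for the genes called in bPAC cells, red where they rose and blue where they fell. The change was larger in bPAC cells for 1213 of the 1468 genes that rose and 1350 of the 1541 that fell. The choice of these genes in bPAC cells favours that. Among genes called in parental cells, 261 of the 577 higher and 179 of the 399 lower moved farther in bPAC cells. Circles mark the 3 genes whose difference between the lines was called.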

How the data were processed

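Total RNA (SPLIT kit) was turned into QuantSeq 3' FWD libraries, both kits from Lexogen, per the labels' protocols, so counts come from transcript 3' ends and do not scale with gene length. Per the submitters' processing notes, reads were placed on CanFam3.1. Which aligner, counter and annotation release served is not given in the sources used here. Deposited were, by the authors, whole-number read counts for 32220 gene IDs per library. The 5 rows without a gene stayed out of library sizes and tests. Gene reads took 31.7% to 33.9% of all reads in the 7 bPAC libraries compared. Reads from near-identical gene copies or beyond annotated ends are lost from such counts, so levels of those genes are uncertain.

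Groups came from the labels. All 18 libraries, in 6 groups, were fitted with edgeR 4.0.16 (filterByExpr at a minimum count of 10, TMM, robust glmQLFit, glmQLFTest) in R 4.3.3, with 3 contrasts and Benjamini-Hochberg adjustment at 0.05. The SE of a log2 fold change is its size over the root of F. Shifts of single libraries are differences of log2 CPM (prior count 2). Alternatives used limma 3.58.1, DESeq2 1.42.0 and sva 3.50.0. On simulated counts with 200 changed genes among 8263 tested, the bPAC low light contrast recovered 35% of 2-fold and 84% of 4-fold changes, with 7 false calls. The simulation held a far smaller share of changed genes than the 35.3% called in the data. It also had no pairs among the low light libraries, so its rates do not carry over to the real comparison.

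The comparison, classes and rules were chosen with earlier results of these data known. Named genes are the 2 largest log2 fold changes per direction among genes called with the same sign in each of 29 alternatives, without overlap between groups and with at least 5 CPM in the higher group.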

Additional observations from a re-analysis of the deposited data

Results flagged for a closer look

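ENSCAFG00000006638 (edgeR adjusted p = 0.00296), ENSCAFG00000016984 (edgeR adjusted p = 0.0113) and ENSCAFG00000018583 (edgeR adjusted p = 0.0182) responded differently to low light in bPAC and parental cells by the interaction test. On leaving out 1 library the interaction of ENSCAFG00000006638 was called in all 18 fits, that of ENSCAFG00000016984 in 14 and that of ENSCAFG00000018583 in 12. The 18 fits include those without a high light library, a group that is not part of this interaction. The 4 lost calls of ENSCAFG00000016984 and the 6 of ENSCAFG00000018583 all came on leaving out a dark or low light library. All 3 were called in the 10 other alternatives, with the same sign throughout.

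Reads that overlap more than 1 gene, which entered no comparison of genes, were 0.0526 per 100 gene reads on average in bPAC low light (SD 0.00537, n = 4) against 0.0375 (SD 0.00315, n = 3) in the dark, and every low light library exceeded every dark one (exact two-sided permutation p = 0.0571, the smallest 4 and 3 libraries allow; Benjamini-Hochberg adjusted 0.2 over 7 library measures). This was not particular to bPAC low light. Parental libraries had 0.0528 to 0.0605 in low light against 0.0329 to 0.0404 in the dark, and bPAC high light libraries had 0.0437 to 0.0584. The share of the 10 most abundant genes also separated the bPAC low light and dark groups, at 17.3% ± 1.29 (SD, n = 4) against 14.6% ± 0.515 (SD, n = 3), with the same exact permutation p of 0.0571. Their part in the gene results was not tested.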

How the results depend on the processing

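The count between low light and dark bPAC cells was 1030 without low light libraries 1 and 4, 219 with 1 surrogate variable and 966 with glmTreat, which asks for more than a 1.5-fold change. Leaving out 1 of the 18 libraries gave 1734 (without bPAC dark library 2) to 3260 genes, and that lowest count was the one that moved by over 1.5 times. DESeq2's size factors, DESeq2, limma-voom, both filters, equal depth and a fit of only these groups gave counts within 1.5 times of 3009. The surrogate variable raised the share of increases among calls to 86.3% from 48.8%. Apart from what each setting leaves out, the cause of these differences was not tested.

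The parental count lay between 242 (without parental dark library 2) and 1248 (without bPAC low light library 4) on leaving out 1 library. The interaction count of 3 became 1 to 6 on leaving out any single library, and was 13 with DESeq2, 76 with no filter, 5 with the surrogate variable, 6 without bPAC low light libraries 1 and 4 and 28 without libraries 2 and 3.

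No paired analysis was possible because the labels give no replicate numbers that link a dark to a low light library. Under 5 CPM the smallest log2 change called was 0.84 in size. What part depth and the spread of replicates have in that limit was not tested.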
